A study of Homo sapiens with 3 samples.

Results

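The 10 genes described here belong to the alveolar lineage and lung identity programme: the transcription factors *NKX2-1*, *FOXA1*, *FOXA2* and *GATA6*, the surfactant protein genes *SFTPB*, *SFTPC* and *SFTPD*, and the surfactant processing and lipid genes *NAPSA*, *ABCA3* and *LPCAT1*. They were chosen by name, with earlier results of these data known, and were found on the arrays through the RefSeq accession of each probe. The 10 genes had 12 probes, out of 22439 genes with a RefSeq symbol and 31104 probes matched to one. A549, the cell line used, comes from a human lung adenocarcinoma and keeps features of alveolar type 2 cells. Both arms of the *miR-139* hairpin were delivered separately as precursors at 10 nM with a lipid reagent, and the mock cells received the reagent without a miRNA. A single array of 1 colour (Cy3) was run per condition, which leaves no replicate to set a difference against, so nothing was tested and p-values are absent throughout. Slide 1 carried the mock array together with that of *miR-139-5p*, whereas *miR-139-3p* was on slide 2, and for the latter the slide cannot be told apart from the transfection.

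Alveolar type 2 cells make pulmonary surfactant, a film of phosphatidylcholine and surfactant proteins that lowers surface tension in the air spaces. NKX2-1 is the homeodomain factor that specifies lung epithelium and activates surfactant genes, while the forkhead factors FOXA1 and FOXA2 open chromatin in foregut endoderm and the zinc finger factor GATA6 acts with them in the developing airways and alveoli. FOXA factors and GATA6 also work in gut and liver, so a lung cell is told from these by NKX2-1 and its targets rather than by FOXA or GATA6 alone.

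The mature sequences of the miRNAs show that they do not share a seed. They are printed 5′ to 3′ with the seed (bases 2 to 8) in capitals, as held by RefSeq for GRCh38.p14, and each has 23 bases.
hsa-miR-139-5p: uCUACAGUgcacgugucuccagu
hsa-miR-139-3p: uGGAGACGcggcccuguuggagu
Both lie on the minus strand of chromosome 11, the first at chr11:72615102-72615124 and the second at chr11:72615066-72615088. Whether mRNAs of the 10 genes hold matches to these seeds was not analysed here.

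Signals are given as the background-subtracted intensity of a probe on each array. A difference is the log2 of the signal divided by the 75th percentile of its array, minus the same value in mock. A gene was called lower or higher past 0.5 on this scale, the threshold that the study set for lower genes and that is used here in both directions, and its value was the mean over its probes that the scanner software marked as well above background in both conditions. Where only 1 of both conditions met this, the gene has a bound. The ± values after differences are technical errors from the software's error of each signal, and they hold no spread between cultures. Of all spots other than controls, between 48.1% and 53.1% were well above background, and the lowest such signal was between 4.32 and 5.12. Spots of negative control probes had a median signal between 0.995 and 1.21.

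Only part of the alveolar programme was seen in these cells. *FOXA1*, *FOXA2*, *GATA6*, *SFTPC*, *NAPSA*, *ABCA3* and *LPCAT1* had a probe well above background on all 3 arrays. *SFTPD* had one only on the *miR-139-3p* array, and *NKX2-1* and *SFTPB* had none on any array. The plot of the signals by probe shows these 3 kinds of gene.

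**Figure D1:**
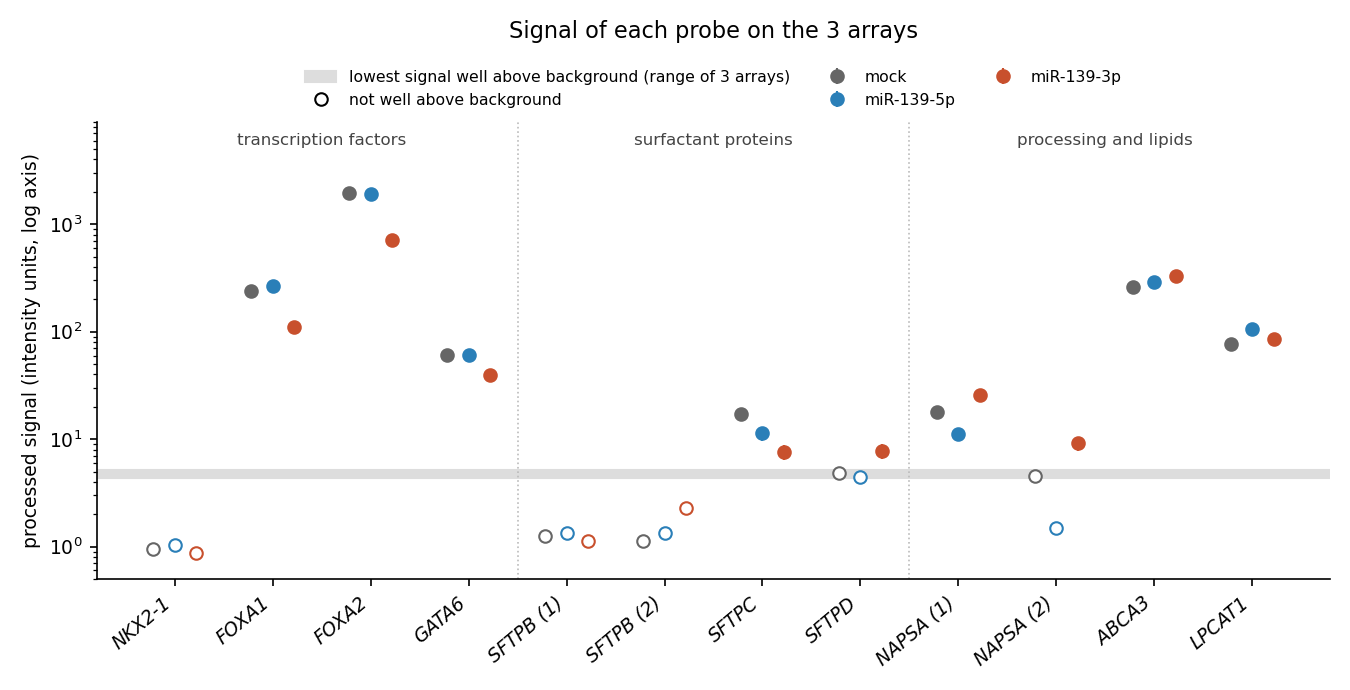
Processed signal of the 12 probes of the 10 genes after each of the 3 treatments, on a log axis of intensity units. Filled points are well above background, open points are not, bars are the error given by the scanner software (mostly smaller than the points), and the grey band spans the lowest signals well above background on the 3 arrays. The *FOXA1*, *FOXA2*, *GATA6* and *SFTPC* points of the *miR-139-3p* array lie below those of mock, and the *NKX2-1* and *SFTPB* points lie between 0.881 and 2.28.

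With *miR-139-3p*, 8 of the 10 genes had a value against mock, of which 7 were measured on both arrays and 1 was a bound. *FOXA1*, *FOXA2* and *SFTPC* were lower past the threshold, *SFTPD*, *NAPSA* and *ABCA3* were higher, and *GATA6* and *LPCAT1* lay within it. Among the 15572 genes with a RefSeq symbol and a value, 27.9% were lower and 26.5% were higher by the same rule. The 3 lower and 3 higher of 8 genes are close to these shares. The median over the 8 genes, the *SFTPD* bound included, was -0.03, against -0.05 over all genes with bounds included. Over the 7 genes measured on both arrays it was -0.41, against -0.09 over all genes so measured. With *miR-139-5p*, 7 genes had a value: *SFTPC* and *NAPSA* were lower, *LPCAT1* was higher, and *FOXA1*, *FOXA2*, *GATA6* and *ABCA3* lay within the threshold. The shares over 15018 genes were 12.3% lower and 10.7% higher for this miRNA. The median over the 7 genes was 0.08, and over all measured genes it was 0.00193. Both comparisons use the same mock array, and the difference between them was not tested.

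**Figure D2:**
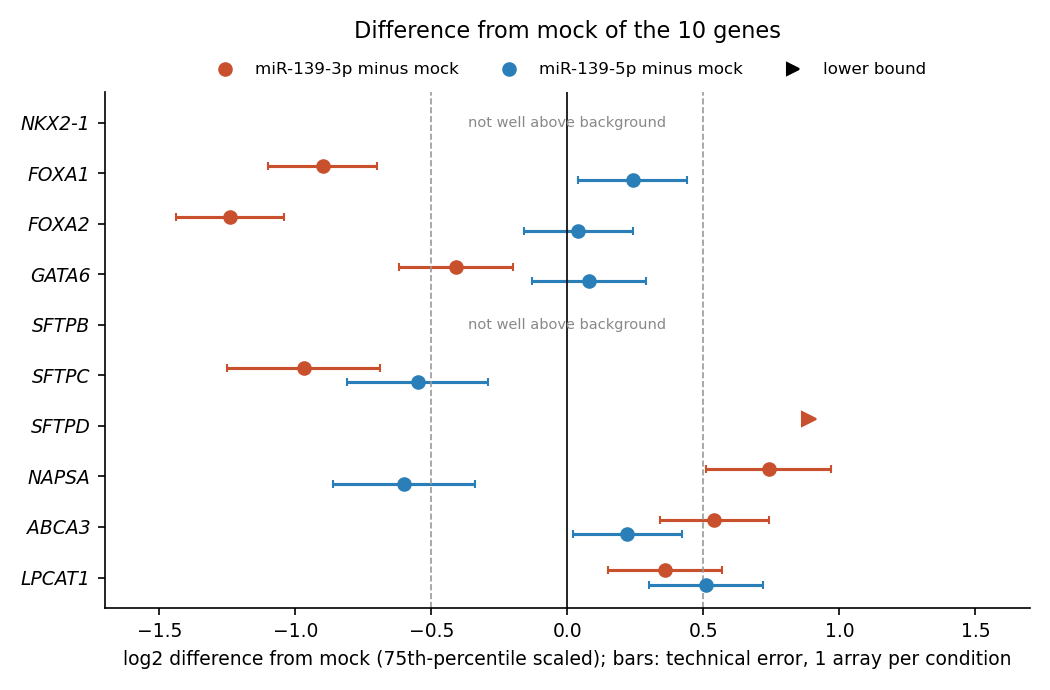
Log2 difference from mock of each of the 10 genes after *miR-139-3p* or *miR-139-5p* transfection, with the technical error as bars, a triangle for the bound of *SFTPD* and dashed lines at the threshold of 0.5 in each direction. *FOXA2* lies farthest to the left at -1.24 with *miR-139-3p* and next to 0 with *miR-139-5p*.

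Of the 4 transcription factors, the forkhead genes were the ones lower past the threshold with *miR-139-3p*. The probe of *FOXA2*, on chromosome 20, had a signal of 1953 in mock, 1907 after *miR-139-5p* and 717 after *miR-139-3p*. The first pair was nearly equal, and *miR-139-3p* stood below both. After scaling, the *miR-139-3p* level was 42.4% of mock, a log2 difference of -1.24 ± 0.20, while *miR-139-5p* gave 0.04 ± 0.20. The *miR-139-3p* difference ran from -1.46 to -1.05 over the 11 other ways of processing the arrays and passed the threshold in all 11.

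*FOXA1*, the paralog of *FOXA2* on chromosome 14, was the one member with 10 spots on each array. Its mean signal was 237 in mock, 266 after *miR-139-5p* and 110 after *miR-139-3p*. The spots ran from 219 to 250 in mock with a median of 238, from 246 to 287 after *miR-139-5p* with a median of 269, and from 101 to 117 after *miR-139-3p* with a median of 110. On the scaled log2 level, the mean over the 10 spots was 1.34 ± 0.07 (SD) in mock, 1.58 ± 0.08 for the 5p arm and 0.44 ± 0.06 for the 3p arm. No spot of the *miR-139-3p* array reached the lowest mock spot, and the lowest *miR-139-5p* spot, at 1.47, was above the highest mock spot, at 1.42. Spots of 1 array share their RNA and labelling, so this separation speaks only of the error within an array. The *miR-139-3p* level was 53.6% of mock, a difference of -0.90 ± 0.20, and it ran from -1.12 to -0.70 over the 11 alternatives. For *miR-139-5p*, the difference was 0.24 ± 0.20 and stayed between 0.17 and 0.35.

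**Figure D3:**
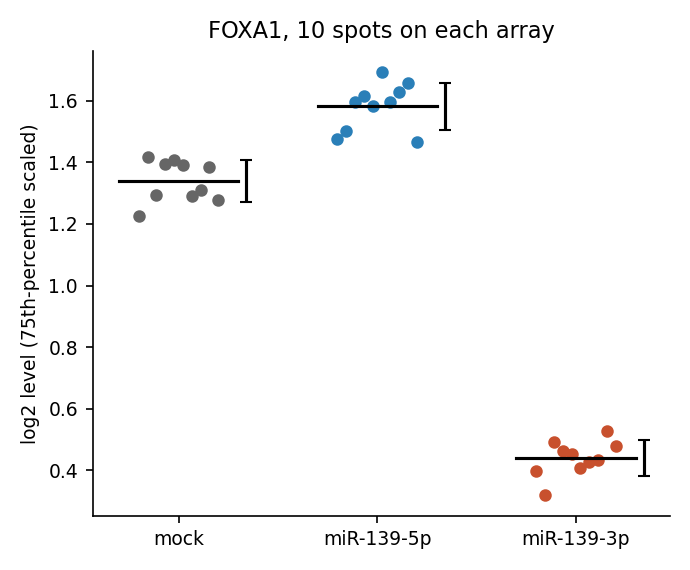
Level of *FOXA1* in each of its 10 spots on the 3 arrays, as log2 of the signal over the 75th percentile of the array. Lines are means and bars are SDs over spots of 1 array. The *miR-139-3p* spots lie between 0.32 and 0.53 and the mock spots between 1.22 and 1.42.

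*GATA6*, on chromosome 18, had a signal of 60.3 in mock, 60.6 after *miR-139-5p* and 39.2 after *miR-139-3p*. The first pair of values was nearly equal and the *miR-139-3p* array was lower, at 75.1% of mock after scaling. The difference of -0.41 ± 0.21 lay within the threshold, but it passed in 4 of the 11 alternatives, with a range from -0.63 to -0.18. With *miR-139-5p*, the difference was 0.08 ± 0.21.

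The probe of *NKX2-1*, on chromosome 14, had signals of 0.947 in mock, 1.03 after *miR-139-5p* and 0.881 after *miR-139-3p*. These values lie at the level of the negative controls, so no level or difference can be given for the factor that heads the programme. Of the surfactant protein genes, the members *SFTPB*, *SFTPC* and *SFTPD* were dim or at background, while a probe of *SFTPA2*, from a list below, was not.

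*SFTPB* on chromosome 2 encodes the surfactant protein that is needed to form the surface film. Its first probe read 1.25 in mock, 1.34 after *miR-139-5p* and 1.14 after *miR-139-3p*. Its other probe read 1.13, 1.35 and 2.28 in the same order, and the last of these was marked as an outlier spot. None was well above background, and no difference is given.

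*SFTPC* on chromosome 8 encodes the surfactant protein made in the lung by alveolar type 2 cells alone. Its signal was 17.3 in mock, 11.3 after *miR-139-5p* and 7.66 after *miR-139-3p*. All 3 were above background and both miRNA arrays were below mock. The difference was -0.97 ± 0.28 with *miR-139-3p*, 51.1% of mock, and -0.55 ± 0.26 with *miR-139-5p*, 68.4% of mock. With normexp background correction the differences were -0.11 and -0.08, but that setting adds an offset of 50 to every signal, which by construction draws signals as low as these toward a difference of 0. Values under normexp therefore say little of genes this dim. The threshold was passed in 10 of 11 alternatives for *miR-139-3p* and in 7 of 11 for *miR-139-5p*.

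*SFTPD* on chromosome 10 encodes a collectin of innate defence. Its signal of 4.82 in mock and 4.41 with *miR-139-5p* was not well above background, whereas 7.73 with *miR-139-3p* was. *SFTPD* was thus at least 1.85-fold higher with *miR-139-3p* than the lowest signal that mock could show, or 0.89 on the log2 scale. The value ran from 0.21 to 1.03 in the 10 alternatives that gave one and passed the threshold in 7. As *SFTPD* has a value only because its probe was detected on the *miR-139-3p* array, where it is high, the direction of this bound was fixed by the filter.

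Of the 3 genes of surfactant processing and lipids, *NAPSA* and *ABCA3* were higher past the threshold with *miR-139-3p*. *ABCA3* on chromosome 16 encodes the transporter that loads phospholipid into lamellar bodies, the storage organelles of surfactant. Its signal was 262 in mock, 289 after *miR-139-5p* and 329 after *miR-139-3p*. Both miRNA arrays were above mock, by 0.54 ± 0.20 with *miR-139-3p* (145% of mock) and 0.22 ± 0.20 with *miR-139-5p*. The *miR-139-3p* value was little past the threshold and ran from 0.32 with scaling to the E1A spike-in RNA to 0.68, passing in 9 of 11 alternatives.

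*LPCAT1* on chromosome 5 encodes the acyltransferase that makes the dipalmitoyl phosphatidylcholine of surfactant. It had a signal of 77.5 in mock, 105 after *miR-139-5p* and 86.1 after *miR-139-3p*. Both miRNA arrays were above mock, *miR-139-5p* by 0.51 ± 0.21 and the 3p arm by 0.36 ± 0.21. The first passed the threshold in 7 of 11 alternatives and the second, which ran from 0.14 to 0.50, in 0.

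*NAPSA* on chromosome 19 encodes napsin A, the aspartic protease that processes the SFTPB precursor and is used in pathology to mark lung adenocarcinoma. Its brighter probe read 17.7 in mock, 11.1 after *miR-139-5p* and 25.7 after *miR-139-3p*. The miRNA arrays stood on opposite sides of mock: the difference was -0.60 ± 0.26 with *miR-139-5p* (66.2% of mock) and 0.74 ± 0.23 with *miR-139-3p* (167% of mock). Its other probe ordered the arrays alike, with 4.56 in mock, 1.49 after *miR-139-5p* and 9.14 after *miR-139-3p*, but only the last was well above background. The *miR-139-3p* value passed the threshold in 8 of 11 alternatives, but not with quantile normalization at 0.44, the deposited log2 table at 0.43 or normexp at 0.33. The *miR-139-5p* value passed in 9, but not with E1A scaling at -0.48 or normexp at -0.01, and the offset of normexp exceeds these signals. The pseudogene *NAPSB*, a close copy of *NAPSA* beside it in the genome, read 45.8, 29.6 and 48.4 in the same order of arrays, and the share of *NAPSB* transcripts in the *NAPSA* signal was not tested.

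Brightness moved with the direction on the *miR-139-3p* array. Over matched probes well above background in both conditions with a mock signal below 25, the median difference was 0.49 and 49.4% were above the threshold, against a median of -0.35 for probes with a mock signal of 1000 or more. The brighter probe of *NAPSA* is among these, and so is that of *SFTPC*, which was lower, as were 11.7% of probes in that range. *SFTPD*, not above background in mock, is in none of these ranges. *FOXA2* is among the bright ones, of which 39.7% were lower past the threshold. *FOXA1* lies in the range from 100 to 1000, where 36.9% were lower. *ABCA3*, higher by 0.54, lies in the same range, where the median was -0.27 and 14.5% of probes were above the threshold. Of the 1176 spots for ERCC control RNA, 2.55% cleared background in mock, 1.7% after *miR-139-5p* and 7.91% after *miR-139-3p*. With *miR-139-5p*, the medians of the brightness ranges lay between -0.01 and 0.07. The part of brightness, or of the difference in ERCC spots, in the values of these genes was not tested.

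**Figure D4:**
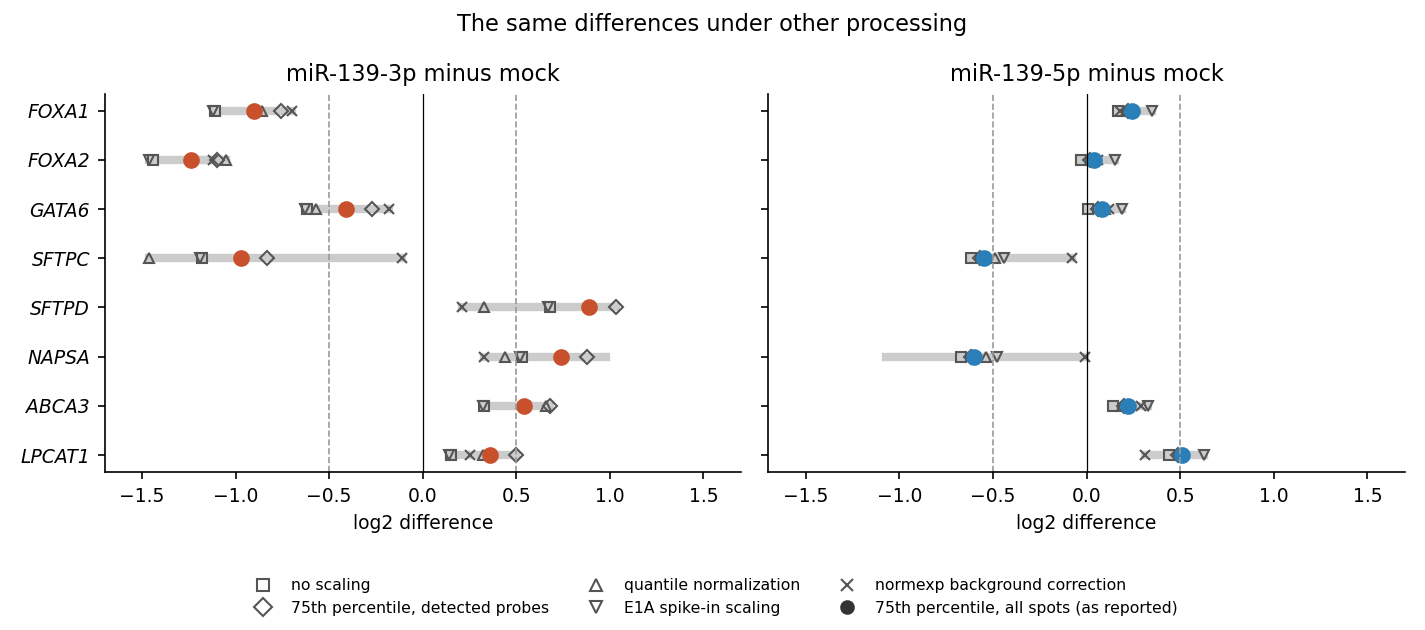
Log2 difference from mock of the 8 genes with a value, under the processing used in the text (coloured circles) and under other scalings or background correction (open symbols and crosses), with a grey bar over all alternatives at the same threshold. *FOXA1* and *FOXA2* stay below the lower dashed line with *miR-139-3p* throughout, while the dim *SFTPC*, *SFTPD* and *NAPSA* lie nearer 0 with normexp, whose offset of 50 has that effect by construction.

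Other genes of the same programmes were read from lists drawn from general knowledge. Their counts stand against the shares over all genes, which for *miR-139-3p* came to 27.9% lower and 26.5% higher, and for *miR-139-5p* to 12.3% lower and 10.7% higher. Of 12 further alveolar type 2 cell genes, 5 were well above background in mock, and 7 had a value with *miR-139-3p*, of which 0 were lower and 3 were higher. The number higher was between 1 and 5 over the alternatives. Only 2 of the 6 measured probes of this list had a mock signal of 100 or more. Among all matched probes with a mock signal below 25, the range of *LAMP3*, 49.4% were above the threshold. In the range from 100 to 1000, that of *SFTPA2*, 14.5% were. *PGC* and *CSF2RB*, the latter among the higher ones, were bounds that had a value only through the *miR-139-3p* array. The median was 0.44 with these bounds and 0.07 over the 5 genes measured on both arrays, and it ran from -0.03 to 0.57 over the alternatives. *LAMP3*, a lamellar body membrane protein, read 5.45 in mock, 5.13 after *miR-139-5p* and 26.1 after *miR-139-3p*, a difference of 2.47 for *miR-139-3p* that was 0.57 with normexp and its offset. *SFTPA2* read 219, 247 and 938 in the same order, a difference of 2.31 that ran from 1.19 to 2.46 over the alternatives. This value rests on 1 probe, since the other probe of *SFTPA2* was at background on each array, as was the probe of its near-identical paralog *SFTPA1* at 1.12, 1.29 and 1.51. With *miR-139-5p*, 2 genes of the list were lower and 1 was higher of 6. The higher one, *DMBT1* at 0.9, was a bound that had a value only through the *miR-139-5p* array. The lower ones were the cathepsin gene *CTSH*, whose protease also processes surfactant precursors, at -0.51, and the mucin gene *MUC1* at -0.78, whose probes disagreed, at -1.46 and -0.09. Over the alternatives, *CTSH* ran from -0.59 to -0.40 and *MUC1* from -1.46 to -0.35, so neither passed throughout.

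Among 12 alveolar type 1 cell genes, which mark the flat cells of gas exchange, 10 had a value with *miR-139-3p*. Of these, 4 were lower and 3 were higher. *GPRC5A*, a retinoic acid-induced receptor gene, read 513 in mock, 458 after *miR-139-5p* and 87.6 after *miR-139-3p*, a difference of -2.34 with *miR-139-3p*. *EMP2*, a membrane protein gene, differed by -1.64. With *miR-139-5p*, 3 of 10 were lower and 1 was higher, among them the caveolin gene *CAV2* at -0.97 and *RTKN2* at 0.96. Another of the lower ones, *AGER* at -0.58, was a bound that had a value only through the mock array. Over the alternatives, *CAV2* ran from -1.13 to -0.56 and *RTKN2* from 0.14 to 1.07, the latter not past the threshold throughout.

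Of 11 airway genes with a probe, 7 had a value with *miR-139-3p*, of which 2 were lower and 2 higher. These counts and those of the type 1 genes are near the shares over all genes. The lower ones were the goblet cell factor *SPDEF*, which read 413 in mock, 221 after *miR-139-5p* and 41.4 after *miR-139-3p*, and the mucin gene *MUC5B*, which read 162, 195 and 25.2. Their differences with *miR-139-3p* were -3.11 and -2.47, the latter from -2.69 to -1.30 over the alternatives. *SPDEF* was also lower with *miR-139-5p*, at -0.83, while *MUC5B* was at 0.34, and 2 of 7 genes of the list were lower in that comparison. The other lower gene, *FOXJ1* at -1.1, was a bound that had a value only through the mock array.

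Lung progenitor and partner transcription factors work beside FOXA and GATA6. Of 16 such genes, 14 had a value with *miR-139-3p*, 8 were lower and 0 were higher, with 5 to 9 lower and 0 to 2 higher over the alternatives. Among the lower ones, *GRHL2* at -0.7 was a bound that had a value only through the mock array. Over all genes 27.9% were lower, and over probes with a mock signal of 100 to 1000 or of 1000 and more, where most probes of these factors lie, 36.9% and 39.7% were. The median was -0.64 with the bound and -0.59 over the 13 genes measured on both arrays, and it ran from -0.86 to -0.33 over the alternatives. The epithelial factor *ELF3* was at -1.69 and *SOX2*, a factor of the proximal airway, at -1.20. Of 14 in the *miR-139-5p* comparison, 4 were lower and 3 higher (from 1 to 4 lower over the alternatives), with *SOX9*, a factor of the distal lung tip, at 1.1 (from 0.58 to 1.21) and *ID2*, an inhibitor of helix-loop-helix factors, at 0.80. *GRHL2*, at -0.59, was here too a bound through the mock array and counts among the lower ones. *GATA4*, a relative of *GATA6* named after its values were seen, was at -0.69 with *miR-139-3p*, but its probes above background disagreed, at -1.38 and 0.0, and its value ran from -1.38 to -0.01.

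The gut and liver factors, which share FOXA partners, had 3 lower and 2 higher of 9 genes with *miR-139-3p* and a median of -0.36. The number lower was between 1 and 6 over the alternatives, and 3 of 9 is near the 27.9% over all genes. *FOXA3*, the third FOXA gene, read 59.9 in mock, 25.5 after *miR-139-5p* and 16.3 after *miR-139-3p*. It was lower in both comparisons, at -1.67 for *miR-139-3p* against -1.16 for *miR-139-5p*, where *FOXA1* and *FOXA2* had values of 0.24 and 0.04. Over the alternatives, the *miR-139-3p* value of *FOXA3* ran from -1.96 to -0.55, and its *miR-139-5p* value from -1.23 to -0.46, so the latter did not always pass the threshold. The intestinal factor *CDX2* was at 1.13 with *miR-139-3p*, but it ran from 0.36 to 1.27. With *miR-139-5p*, 2 of 9 were lower and 1 was higher, the secreted trefoil factor gene *TFF3* at 0.76 (from 0.43 to 0.88).

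Genes of phosphatidylcholine synthesis and remodelling, the pathway of *LPCAT1*, had 8 lower and 1 higher of 15 with *miR-139-3p*, with a median of -0.60. Over the alternatives the median ran from -0.81 to -0.27 and the number lower from 7 to 9. Over all genes 27.9% were lower, and 36.9% to 39.7% of probes were lower at mock signals of 100 and more, where 12 of the 18 measured probes of this list lie. *AGPAT2*, an acyltransferase of phosphatidic acid synthesis, was at -1.52, and the phosphatidate phosphatase gene *LPIN2* at -1.46 (from -1.68 to -0.78). The other members of the *LPCAT* family, named after their values were seen, were all lower: *LPCAT2* at -1.35, *LPCAT3* at -0.81 and *LPCAT4* at -1.34, while *LPCAT1* was at 0.36. Over the alternatives, the value of *LPCAT2* reached from -1.81 to -0.16, that of *LPCAT3* from -1.03 to -0.61 and that of *LPCAT4* from -1.56 to -0.61. With *miR-139-5p*, 1 of 15 was lower, *AGPAT2* at -1.15, and 0 were higher, with *LPIN1* at 0.46. In that comparison *LPCAT2*, *LPCAT3* and *LPCAT4* were at 0.03, 0.17 and -0.19.

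Genes of lamellar body trafficking and lysosomal proteases, which serve the organelle that holds ABCA3, had 4 lower and 0 higher of 13 with *miR-139-3p* and a median of -0.32. With 3 to 7 lower over the alternatives, this is near the share over all genes. *AP3B1*, an adaptor subunit, was at -1.19 and *BLOC1S6*, a subunit of a complex for lysosome-related organelles, at -0.75. With *miR-139-5p*, 4 of 14 were lower and 0 higher, though 1 to 5 lower and 0 to 2 higher over the alternatives, with the cathepsin gene *CTSD* at -0.99 and *HPS1*, a subunit of another such complex, at -0.77 (from -0.87 to -0.49). *CTSD* had no value for *miR-139-3p*, where its spot was an outlier. *ABCA3* itself was above mock in both comparisons.

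**Figure D5:**
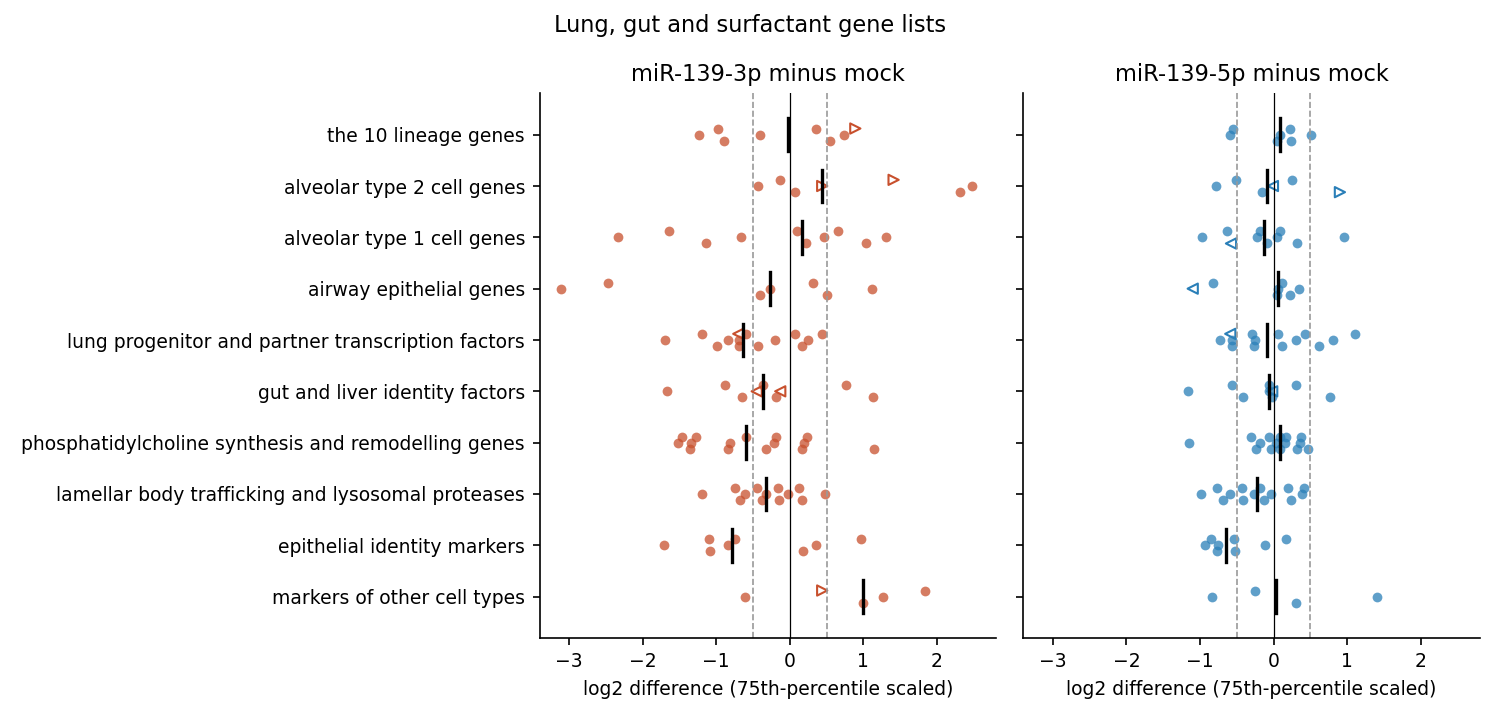
Log2 difference from mock of each gene with a value, for the 10 lineage genes and the other lists, with *miR-139-3p* on the left and *miR-139-5p* on the right. Points are genes measured on both arrays, open triangles are bounds pointing away from 0, black lines are list medians and dashed lines mark the threshold of 0.5. The 10 lineage genes and the alveolar type 1 genes spread to both sides with *miR-139-3p*, and 8 of the 14 partner transcription factors lie left of the lower dashed line. The bound of *GRHL2* is among these 8.

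As a check of the cell type, all 8 epithelial marker genes were well above background on the 3 arrays. With *miR-139-3p*, 5 of the 8 were lower and 1 was higher, with the tight junction gene *CLDN4* at -1.71 (from -1.93 to -1.0 over the alternatives) and the keratin gene *KRT7* at -1.10. Over all genes, 27.9% were lower for *miR-139-3p*, and 12.3% in the other comparison. At mock signals of 100 and more lie 10 of the 11 probes of these markers. There, 36.9% to 39.7% of probes were lower with *miR-139-3p*, and 7.24% to 11% with *miR-139-5p*. With *miR-139-5p*, 6 of the 8 were lower, and from 3 to 6 over the alternatives, with *CLDN7* at -0.93 (from -1.0 to -0.24) and *KRT8* at -0.85. Of the 7 markers of endothelial, immune and stromal cells with a probe, 4 were above background in mock and 5 with *miR-139-3p*, and the endothelial marker *PECAM1* and the fibroblast marker *DCN* were not above it on any array. The endothelial marker *CDH5*, named after its values were seen, was above it on each array, with 14.5 in mock, 11.4 after *miR-139-5p* and 25.1 after *miR-139-3p*, a difference of 1.0 for the latter (from 0.22 to 1.14). The summed signal of their 14 probes was 222 in mock, 218 after *miR-139-5p* and 521 after *miR-139-3p*, of which 426 came from *ACTA2*, the smooth muscle actin gene, at 1.83 for *miR-139-3p* against -0.84 for *miR-139-5p*. The leukocyte gene *PTPRC* was at 1.26 with *miR-139-3p* (from 0.30 to 1.40), read from dim probes, 3 of 5 being at background, and the collagen gene *COL1A1* was at 1.41 with *miR-139-5p* (from 0.89 to 1.52). With *miR-139-3p*, *COL1A1* was lower, at -0.61 (from -0.89 to -0.2). Of the 5 markers with a value in that comparison, 3 were higher and 1 was lower, against 26.5% and 27.9% over all genes. The part of other cell types in the values of the 10 genes was not tested.

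FOXA proteins bind forkhead words, *FOXA1* and *FOXA2* were lower with *miR-139-3p*, and the promoters of the members were searched for these words. Of the 10 genes, 8 had promoter windows in the RefSeq table (GRCh38.p14), 11 windows in all, and the 250 bases before each start were read on both strands. *FOXA2* and *SFTPC* had no window and were not searched. The forkhead words TGTTTAC or TGTTTGT occurred in 3 of the 11 windows, in *NKX2-1*, *SFTPB* and *GATA6*. Stretches of 30 bases around each are printed 5′ to 3′ in the direction of the gene, with the word, or its reverse complement, in capitals.
NKX2-1: gaaacttaaaggTGTTTACcttgtcatcag
SFTPB: ttcagagcaaagACAAACActgaggtcgct
GATA6: ttcggcgagcgcTGTTTGTttagggctcgg
The *NKX2-1* stretch lies at chr14:36519669-36519698 on the minus strand, with the word from -130 to -124 of that start. In *SFTPB*, the stretch lies at chr2:85668265-85668294 on the minus strand and the word from -83 to -77. That of *GATA6* is at chr18:22169462-22169491 on the plus strand, with the word from -115 to -109. Over 35116 promoters of the same length, 2.98% held TGTTTAC, 4.56% held TGTTTGT and 7.23% held either. Of these 3 genes, *NKX2-1* and *SFTPB* had no measurable level and *GATA6* was at -0.41 with *miR-139-3p*. The GATA word AGATAA, found in 9.17% of promoters, occurred in *NKX2-1*, and CTCAAG, a word of NKX2 factors found in 10.4%, in *FOXA1* and *NAPSA*. A match is a description of letters, not of a bound site.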

How the data were processed

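Cy3-labelled RNA from A549 cells was read on 3 Agilent arrays. The authors deposited the processed signal intensity of every spot, read by Feature Extraction 12.1.1.1, which subtracts background, without scaling between arrays. A further table that the authors deposited holds log2 values. Each column had a median of 2.21 and matched quantile-normalized log2 signals (correlation 0.99997 or higher), so it served as an alternative.

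Outlier spots (614 in mock, 935 for the 5p arm and 1526 for the 3p arm) were dropped. The log2 of the 75th percentile over spots other than controls was subtracted from each array's log2 signals, and spots of a probe were averaged. A probe was well above background where at least 50% of its spots were. Bounds came from the brightest probe detected on a single array, and the dim side took its own signal or the lowest signal well above background, whichever was higher. Genes were named by RefSeq accession (GRCh38.p14 annotation), which named 24751 of 25277 probes with an NM accession. The SD between spots of a probe had a median of 0.05 to 0.06 (log2), and the SD between probes of a gene had a median of 0.28 in the *miR-139-3p* comparison (3684 genes) and 0.149 in the other (3743 genes). Precision is limited by the number of arrays.

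The comparisons were each miRNA against mock. All 10 members are named, and from each other list at most 2 genes per comparison, those with the largest absolute difference measured on both arrays. *GATA4*, *LPCAT2*, *LPCAT3*, *LPCAT4*, *CDH5*, *PGC*, *CSF2RB*, *PECAM1*, *DCN* and *SFTPA1*, and the neighbours of the members, are named outside this rule, after their values were seen. So are the bounds of *DMBT1*, *GRHL2*, *FOXJ1* and *AGER*. The members and lists were chosen with earlier results of these data known. In total, 12 alternatives were tried, changing scaling, background correction (normexp, offset 50), filter, probe choice, outlier spots, threshold or table. Python 3.11.15, numpy 2.4.6, pandas 2.3.3, matplotlib 3.10.9, R 4.3.3 and limma 3.58.1 were used, and the steps were tested on simulated data.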

Additional observations from a re-analysis of the deposited data

How the results depend on the processing

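Of the differences of the members, none changed sign under an alternative apart from *FOXA2* with *miR-139-5p*, at 0.04 and -0.03 without scaling. *FOXA1* and *FOXA2* were below the threshold with *miR-139-3p* in all 11 alternatives at that threshold. The number of members lower with *miR-139-3p*, 3, was 4 without scaling, with quantile normalization, with E1A scaling and with the deposited log2 table. It was 2 with normexp and 1 at a threshold of 1. The number higher, 3, was 2 without scaling, with E1A scaling and with only probes well above background on all 3 arrays. It was 1 with quantile normalization, 1 with normexp, 1 with the deposited log2 table and 0 at a threshold of 1. The median of -0.03 became -0.41 with only probes well above background on all 3 arrays, which leaves out *SFTPD* by construction. With *miR-139-5p*, the number lower, 2, was 1 with quantile normalization, 1 with the deposited log2 table, and 0 with E1A scaling, normexp or a threshold of 1. The number higher, 1, was 0 without scaling, with the percentile over detected probes, with normexp, with the deposited log2 table and at a threshold of 1. The offset of normexp draws dim genes toward 0 by construction. Otherwise the cause was not tested. Scaling also moved the balance of all genes, which with *miR-139-3p* came to 37.8% lower and 19.6% higher without scaling, 38.3% and 19.2% with E1A scaling, 22.4% and 31.8% with the percentile over detected probes, and the median of all genes went to -0.30, -0.31 and 0.05. With *miR-139-5p*, E1A scaling moved the median of all genes to 0.11, with 8.34% lower and 15.9% higher. Signal over background limits *NKX2-1* and *SFTPB*, which have no value, and *SFTPC*, *SFTPD* and *NAPSA*, which are dim. No paired analysis was possible because each group had 1 array.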

Other observations

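The nearest gene with a probe on each side of each member was also read, a rule made after the data were seen. Next to *FOXA2* lies *LINC00261*, a long noncoding RNA gene. Its brighter probe read 55.6 in mock, 84.6 after *miR-139-5p* and 13.3 after *miR-139-3p*, and its dim probe read 7.21, 9.6 and 3.16, the last not well above background. The gene was at -1.85 with *miR-139-3p*, with a range from -2.19 to -0.57 over the alternatives, and at 0.58 with *miR-139-5p* (from 0.23 to 0.69), against -1.24 and 0.04 for *FOXA2*. The neighbours of other members did not all follow them. The antisense RNA genes *NKX2-1-AS1* and *GATA6-AS1* were not well above background on any array. *BMP1*, next to *SFTPC*, was at -0.84 with *miR-139-3p* and *LGI3*, on its other side, at 0.44. *RNPS1*, next to *ABCA3*, was at -0.97 while *ABCA3* was at 0.54. *NAPSB* was at 0.42 for *miR-139-3p* against -0.56 for *miR-139-5p*, the same signs as *NAPSA*. No test of these values was made.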
